A study of Mus musculus with 6 samples.

Results

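C1q-negative monocytes and dendritic cells of the proximal pulmonary artery (PA) were analysed in single cell RNA sequencing data from young and old mice. A barcode was kept with at least 500 unique molecular identifiers (UMIs, counts of distinct mRNA molecules), at least 300 genes and at most 20% mitochondrial UMIs. A kept cell was a member where the UMIs of Tyrobp, Fcer1g, Lst1, Plac8 and Cd52 summed to at least 3 and to more than 2 times those of 10 genes of other cell types (Cdh5, Myh11, Pdgfra, Cd79a, Cd79b, Cd3e, Cd3g, Nkg7, Msln and Scgb1a1), where Tyrobp or Fcer1g was detected, and where C1qa, C1qb, C1qc and Mrc1 summed to at most 1 UMI. This rule took 665 of 15622 kept cells, or 4.26%. The same gate with 2 or more UMIs of the C1q genes and Mrc1 took 1089 cells, called C1q-positive here, which serve as the comparison. As marker counts chose the cells, the levels of the rule's own genes are described without a test.

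The study asked how the proximal PA changes with age. The main PAs of wild-type mice, C57BL/6J by the study's methods, were excised with the tissue around them, digested with collagenase and elastase and run on a droplet platform. Each library is taken as 1 mouse, as the study's text counts mice, and a further young male of that text is not analysed here. In the young group both mice were 3 months old, and 1 was male and 1 female. In the old group the mice were 20, 24, 27 and 28 months old; the oldest is given as female and the others as male. The sexes of the 20-month, 24-month and young male mice come from the study's text, since their titles give only ages. No treatment or transgene was used in these mice, and whether an old mouse was aged locally or came from an aging colony is not given per library.

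Monocytes are made in bone marrow, circulate in blood and enter tissues through the chemokine receptor CCR2, where they can become macrophages or antigen-presenting cells. Conventional dendritic cells take up antigen and display it to T cells on MHC class II molecules. Resident macrophages of the arterial wall express complement C1q and the mannose receptor Mrc1, and the rule leaves them out by these genes. Tyrobp (DAP12) and Fcer1g are adaptor proteins that pass on signals of activating receptors in many myeloid cells and in natural killer (NK) cells. Neutrophils carry them too, along with large amounts of S100a8 and S100a9, the subunits of the alarmin calprotectin.

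Depth differed widely between libraries. The libraries held between 6355125 UMIs in the young female and 50436562 in the female of 28 months. C1q-negative cells numbered 195 in the young male, 14 in the young female, 14 at 20 months, 214 at 24 months, 18 at 27 months and 210 at 28 months. Their median depth was 968 UMIs in the young male, 627 in the young female, 3476 at 20 months, 1013 at 24 months, 8311 at 27 months and 5743 at 28 months. Both young libraries were thus shallow, as was the 24-month library, while the other old libraries were deeper. Age and depth cannot be told apart in the remaining contrast.

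Some libraries also stood apart before any result was read. Kept cells of the young male, the young female and the 24-month library shared barcodes (156, 131 and 215 between the 3 pairs), whereas any other pair shared at most 4, and 0 C1q-negative cells were members in both libraries of a pair. The members of the 20-month library, a male by the study's text, held 30 Xist UMIs and 3 Ddx3y UMIs, and 0 of Eif2s3y, Kdm5d and Uty. By contrast, the members at 24 months held 1 Xist UMI and 33 Ddx3y UMIs, and those at 28 months, from a female, held 912 and 0, with 1 UMI of Kdm5d. The RNA of the 20-month library thus goes against its stated sex, and the fits with sex as a covariate code it as male.

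The gate's own genes were detected in all 6 libraries. Tyrobp reached 1674 CPM (UMIs of the gene per 1e6 UMIs, over all members of a library summed) in the young male, 2582 in the young female, 1074 at 20 months, 1817 at 24 months, 1109 at 27 months and 2148 at 28 months. Plac8, a small protein of myeloid and lymphoid cells, was at 946, 1291, 351, 1445, 348 and 2383 CPM in the same order. Cd52, a surface glycoprotein of leukocytes, was at between 1291 and 3406 CPM. C1qa was at 0 to 99.3 CPM, and the highest value, in the young female, was 1 UMI. At the edge of the rule, 45 members had a marker sum of exactly 3, and 56 cells outside had a sum of 2 and otherwise met it. On the C1q side, 113 members had 1 UMI of the C1q genes or Mrc1, while 66 cells of the gate had 2 and fell to the C1q-positive cells.

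The label of monocytes and dendritic cells held only in part. The 665 cells fell into 12 clusters, and 5 of them (clusters 2, 5, 7, 8 and 10), led by genes of B cells, neutrophils, fibroblasts or NK cells, took 201 cells, or 30.2%. The cells are therefore called C1q-negative cells below. The leading genes of a cluster were those with the largest fold over the other members, so they describe the cluster and test nothing.

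**Figure D1:**
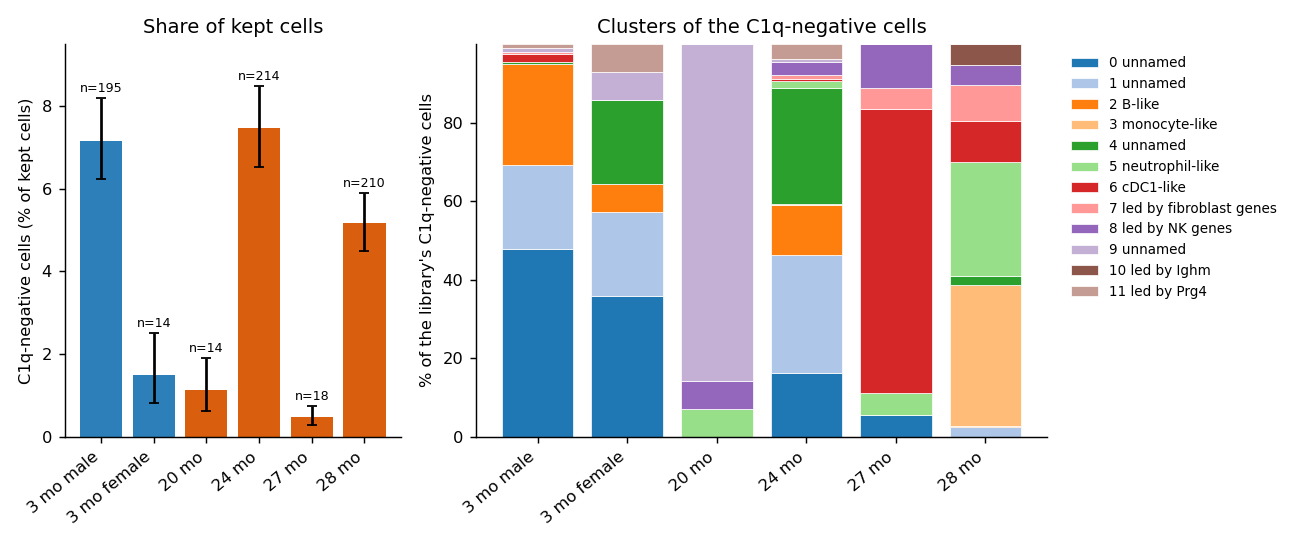
Left, C1q-negative cells as a percentage of kept cells in each library (bars; blue young, orange old; whiskers, exact 95% binomial interval; n, cells). Right, the share of each library's C1q-negative cells in each of 12 clusters; the 20-month, 27-month and 28-month libraries were filled by different clusters, and the young male and 24-month libraries by clusters 0, 1, 2 and 4.

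Monocyte-like cells formed cluster 3. It held 76 cells, of which 75 came from the 28-month library. Its leading genes included F13a1 (coagulation factor XIII A chain), Vcan (versican), Csf1r (the receptor of macrophage colony-stimulating factor) and Lyz2 (lysozyme). Lyz2 stood at 15249 CPM in this cluster and at 2489 CPM in the other members, and Csf1r was detected in 92.1% of its cells. Ccr2 was at 1461 CPM here. Adgre4, a gene of non-classical monocytes, was also among the 10 leading genes, at 343 CPM, and its median depth was 7126 UMIs.

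Cluster 4 took 72 cells, 63 of them at 24 months, and was left unnamed. Its leading genes mixed the chemokines Ccl4, Ccl2 and Cxcl2 with hemoglobin genes and with Scgb1a1, a secretory gene of the airway. Lyz2 was at 8804 CPM and Ly6c2, a surface antigen of classical monocytes, at 992 CPM, the highest of the 12 clusters. Mcpt4, a mast cell protease, was at 2633 CPM, and all 207 of its UMIs came from 4 cells of the 28-month library. Hemoglobin RNA tracked the library: in members thinned to 500 UMIs, erythroid genes were detected in 93.0% at 24 months and in 91.3% of kept cells outside the gate, and in 10.8% and 10.2% in the young male. The shares in members were thus close to those outside the gate of the same library, and they are not read as expression by the members. Across the libraries, the thinned shares in members ranked in the same order as the erythroid level in free RNA, though not in proportion to it. The lowest were at 27 months, with 1421 CPM in free RNA and 0% of members. Free RNA was at 94686 CPM in the young female, 102196 CPM at 28 months and 109376 CPM at 24 months. The shares of members there were 21.4%, 49.0% and 93.0%. The part of free RNA in these shares was not tested.

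Neutrophil-like cells formed cluster 5, with 67 cells, of which 61 came from the 28-month library. Of its 10 leading genes, 8 were on the neutrophil list: S100a8, S100a9, Retnlg, Cxcr2, Mmp9, Lcn2, Il1r2 and Csf3r. S100a8 was at 92319 CPM and S100a9 at 90979 CPM, against 1119 and 851 CPM in the other members, and both were detected in 100% of the cells. Retnlg, a resistin-like secreted protein, was at 11678 CPM, and Cxcr2, the receptor by which neutrophils follow CXC chemokines, at 991 CPM. Hdc, which makes histamine, was detected in 95.5% of these cells. Ccr2 was at 0 CPM and H2-Aa at 21.2 CPM in this cluster.

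Dendritic cell genes led cluster 6 and ran high in 3 unnamed clusters. Cluster 6 held 40 cells, 22 from the 28-month library, 13 of the 18 members at 27 months, 4 from the young male and 1 at 24 months, so it drew on more libraries than the monocyte-like cluster. Clec9a, a receptor for dead cells, was at 390 CPM, Wdfy4, needed for cross-presentation, at 2304 CPM, and the adhesion molecule Cadm1 at 649 CPM. These are markers of conventional dendritic cells type 1 (cDC1), and the cluster is called cDC1-like. Xcr1, the chemokine receptor of cDC1, was at 182 CPM.

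Clusters 0, 1 and 9 held high MHC class II without such leading genes. H2-Aa, an MHC class II alpha chain, was at 7566, 6876 and 7026 CPM in them, above the 5458 CPM of the cDC1-like cluster. Cluster 0 (134 cells, 93 from the young male and 35 at 24 months) was led by the metallothioneins Mt2 and Mt1, by Cxcl2 and Tnfaip3, and by predicted genes such as Gm10801. Cd209a and Mgl2, lectins of dendritic cells type 2, were at 462 and 339 CPM there, the highest of the 12 clusters. Cluster 1 (114 cells, 64 at 24 months and 42 from the young male) was led by predicted genes, hemoglobin genes and the nuclear receptor Nr4a2, with Cst3, the protease inhibitor cystatin C, at 11553 CPM. Cluster 9 (17 cells) took 12 of the 14 members at 20 months and was led by predicted genes. None of the 3 had a monocyte or dendritic cell marker among its 10 leading genes, so they carry no cell type name.

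Of the remaining clusters, those numbered 2, 7, 8 and 10 held RNA of other cells, while cluster 11 carries no cell type name. Cluster 2 was B-like, with 79 cells, 50 of them from the young male and 27 at 24 months, and Ms4a1 (CD20) at 1101 CPM. Cluster 10 held 11 cells, all at 28 months, with Ighm, the immunoglobulin M heavy chain, at 11010 CPM in 100% of its cells. Cluster 8 (21 cells, all from old libraries) was led by Ccl5, Gzma, Nkg7, Il2rb and Ly49 receptor genes of NK cells, with Ncr1 at 514 CPM. Cluster 7 (23 cells, 19 at 28 months) was led by the matrix genes Dcn, Col3a1 and Col1a2, and held S100a8 at 11203 CPM as well. Cluster 11 (11 cells, 8 at 24 months) was led by Prg4 (lubricin), the lipoxygenase Alox15 and the chemokine Pf4, and held Lyz2 at 19506 CPM. Of all members, 260 carried at least 1 UMI of the 10 genes of other cell types that the rule weighs against the myeloid sum.

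**Figure D2:**
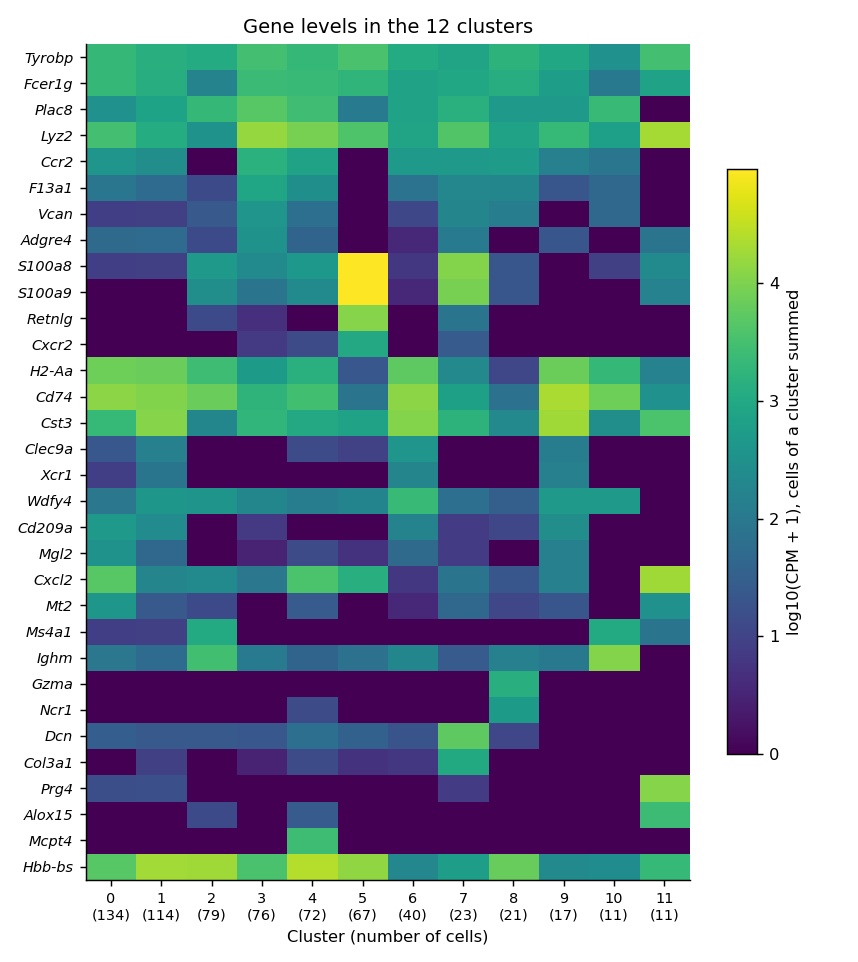
Summed level of 32 genes in the 12 clusters of C1q-negative cells, as log10(CPM + 1) (colour; columns, clusters with their number of cells). S100a8 and S100a9 peaked in cluster 5, Clec9a and Wdfy4 in cluster 6, H2-Aa and Cd74 in clusters 0, 1, 6 and 9, and Mcpt4 in cluster 4.

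S100a8 and S100a9 were higher in each old library than in the young ones, but neither passed the test. Their genes lie close together on chromosome 3 and their products work as a pair. The promoters are shown because the values described next turn on this pair of genes. They come from RefSeq (GRCm38.p6), from 250 bases before the start of the gene to 50 after it, on the coding strand, at chr3:90668821-90669120 for S100a8 (plus strand) and chr3:90695672-90695971 for S100a9 (minus strand). Capitals mark GGAAGT, a core sequence of ETS factors such as PU.1, and TATAAA, the letters of a TATA box, each searched on both strands. ACTTCC is GGAAGT read on the other strand.
S100a8: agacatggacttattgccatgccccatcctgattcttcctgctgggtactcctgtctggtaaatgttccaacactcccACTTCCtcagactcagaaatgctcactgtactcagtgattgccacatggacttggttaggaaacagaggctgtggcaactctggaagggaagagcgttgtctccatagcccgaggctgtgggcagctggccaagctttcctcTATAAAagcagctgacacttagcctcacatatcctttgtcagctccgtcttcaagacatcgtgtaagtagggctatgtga
S100a9: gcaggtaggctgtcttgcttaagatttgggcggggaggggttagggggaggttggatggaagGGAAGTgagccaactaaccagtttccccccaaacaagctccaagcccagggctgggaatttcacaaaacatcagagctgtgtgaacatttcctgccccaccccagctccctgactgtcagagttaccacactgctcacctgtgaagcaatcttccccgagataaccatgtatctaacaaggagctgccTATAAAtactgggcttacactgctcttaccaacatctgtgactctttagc
Both windows held both motifs, with TATAAA 30 bases before the annotated start of S100a8 and at base 1 of the annotated S100a9 transcript. Over all 32851 promoter windows of this length, 23.8% held GGAAGT and 13.6% held TATAAA. A match of letters is a description and shows no binding.

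In C1q-negative cells, S100a8 stood at 4.85 CPM in the young male, 0 in the young female, 248 at 20 months, 450 at 24 months, 609 at 27 months and 17181 CPM at 28 months. S100a9 was at 0 in both young libraries and at 310, 316, 406 and 16647 CPM in the old ones, in order of age. All 4 old libraries were thus above both young ones for both genes, and the 28-month library stood far above the other old ones. With 0 of 216196 young member UMIs, S100a9 could be at up to 13.9 CPM there by counting error alone (3 counts over both libraries). Its lowest old value was 22.3-fold above that. This figure takes UMIs as independent, while the 27 UMIs of the pair at 20 months came from 1 cell, so it is no bound over cells. The figure also rests on the young male, since 3 counts over the 10070 member UMIs of the young female alone are 298 CPM, which leaves 1.04-fold.

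The number of cells behind these values was small in all but 1 old library. The 27 UMIs of the pair at 20 months and the 140 at 27 months each came from 1 cell. The 177 UMIs at 24 months came from 12 cells, and the 46216 at 28 months from 84 cells. Without cluster 5, the pair was at 0 CPM at 20 and 27 months, at 538 CPM at 24 months and at 2950 CPM at 28 months. After thinning to 500 UMIs, the pair was detected in 32.9% of members at 28 months against 0.625% of kept cells outside the gate, and in 4.67% against 0.947% at 24 months. In free RNA, taken from barcodes under 100 UMIs, the pair was at 55.5 CPM in the young male, 160 in the young female, 49.7 at 20 months, 101 at 24 months, 0.525 at 27 months and 1432 CPM at 28 months. The young female lay above 3 of the 4 old libraries in free RNA. The part of free RNA in the member values was not tested.

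The test over libraries did not call either gene. By edgeR's quasi-likelihood test S100a8 had an adjusted p of 0.999 (unadjusted 0.0595) and S100a9 an adjusted p of 0.999 (unadjusted 0.0992). The gene filter asks for a count in over 5% of members in 3 libraries, and both genes met it only through old libraries (a UMI of the pair in 1 of 195 and 0 of 14 young members). They could thus be tested only because they were higher in old libraries, and the p-values that follow are given as a description of the settings and not as support. S100a8 passed without the 24-month library (adjusted p = 1.24e-05), without the 28-month library (0.00158), without the gene filter (8.96e-05) and with sex in the model (9.68e-15). S100a9 passed without the 24-month library (0.00801) and with sex in the model (1.62e-16). The fits with sex take the 20-month library as male, against its Xist and Y-linked counts, so their p-values hold only under that coding. The 28-month library is the only old one given as female, and its age and sex cannot be told apart.

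Cells with the S100 pair and cells with MHC class II were largely separate. At a limit of 2 UMIs, 414 members had H2-Aa, H2-Ab1 or H2-Eb1 without the pair, 83 had the pair without class II, 4 had both and 164 had neither. In the young male, 176 of 195 members had class II alone and 0 had the pair. At 28 months, 60 of 210 had class II alone and 76 had the pair alone. Depth differed between these libraries, and its part in the counts was not tested.

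**Figure D3:**
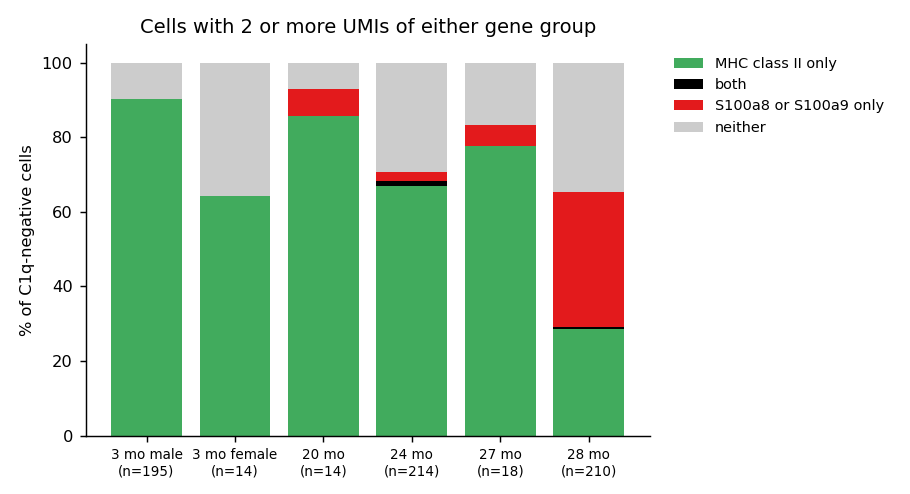
Percentage of each library's C1q-negative cells with 2 or more UMIs of S100a8 or S100a9, of MHC class II (H2-Aa, H2-Ab1 or H2-Eb1), of both or of neither (n, cells). Class II alone ran from 28.6% at 28 months to 90.3% in the young male, and the pair alone from 0% in both young libraries to 36.2% at 28 months.

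MHC class II and its partners were abundant in C1q-negative cells of every library. Cd74, the invariant chain that guards the class II groove, was at 10838 CPM in the young male, 8640 in the young female, 21148 at 20 months, 7490 at 24 months, 14777 at 27 months and 3366 at 28 months. H2-Aa was at 6089, 4667, 6815, 4400, 6276 and 1255 CPM in that order. The 28-month library was thus the lowest for both, while the other old libraries overlapped the young ones. Cst3 was at 5259, 3376, 18029, 3656, 8573 and 3145 CPM, with the 20-month library highest. None of the 3 passed between age groups by edgeR (adjusted p = 0.999 each). After thinning to 500 UMIs, an MHC class II gene was detected in 96.9% of members of the young male, 85.7% of the young female, 85.7% at 20 months, 78.0% at 24 months, 77.8% at 27 months and 35.7% at 28 months, against 3.46% to 56.9% of kept cells outside the gate.

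**Figure D4:**
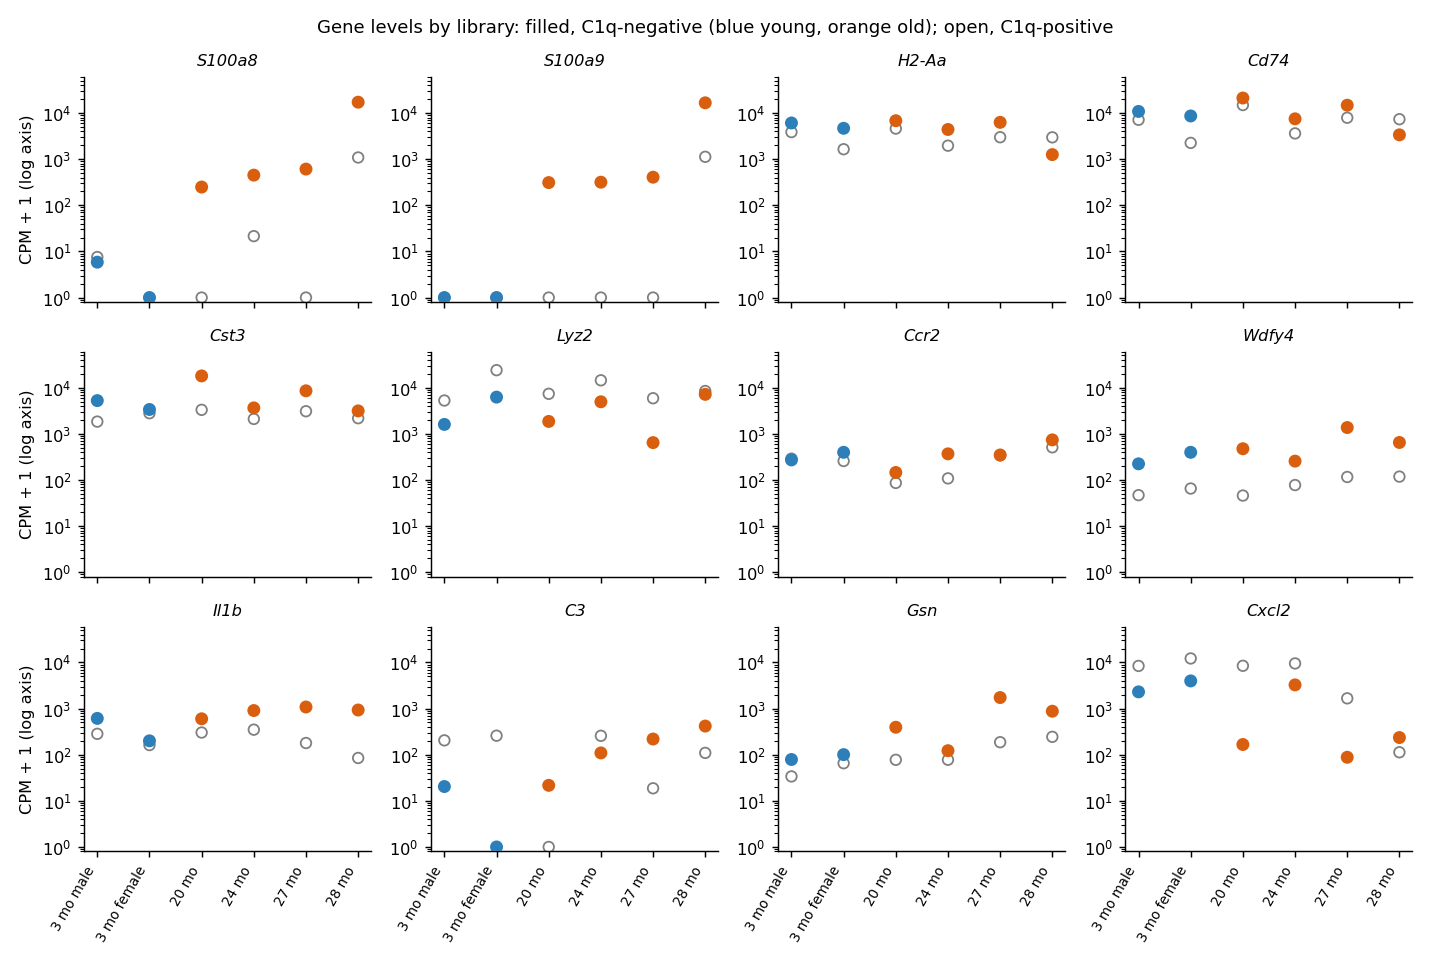
Level of 12 genes in each library as CPM + 1 on a log axis, in C1q-negative cells (filled; blue young, orange old) and C1q-positive cells (open). S100a8 and S100a9 reached 17181 and 16647 CPM in C1q-negative cells at 28 months, while H2-Aa and Cd74 were lowest there, and Wdfy4 was above the C1q-positive cells in 6 of 6 libraries.

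The share of C1q-negative cells did not differ detectably between young and old PAs. It was 7.16% of kept cells in the young male (exact 95% interval 6.22% to 8.20%), 1.50% in the young female, 1.14% at 20 months, 7.46% at 24 months (6.53% to 8.48%), 0.474% at 27 months and 5.16% at 28 months. The groups overlapped, with a mean of 4.33% ± 4.01 (SD, n = 2) for the young and 3.56% ± 3.33 (SD, n = 4) for the old PAs, a difference of -0.772 percentage points (exact permutation test, two-sided, p = 0.667, where the smallest p possible is 0.133). Within the myeloid gate, C1q-negative cells made up 62.1%, 33.3%, 15.9%, 63.9%, 6.77% and 29.6% in the order above. This share moved with depth. With the rule applied to cells thinned to 500 UMIs it was 73.8%, 42.3%, 16.7%, 80.2%, 21.5% and 60.9%, and the groups overlapped in both versions. Without the young male the difference in the share of kept cells turned to 2.06 percentage points.

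The comparison of old with young libraries called 3 of 6293 genes tested, or 0.0477%, all lower in old PAs by edgeR's quasi-likelihood test at an adjusted p under 0.05. Gm21738, a predicted gene, was at 218 and 99.3 CPM in the young male and female and at 0, 21.6, 7.25 and 0.732 CPM in old libraries by age (log2 fold change -4.72 ± 0.91 SE, adjusted p = 0.0173). The groups did not overlap for Gm21738, but its value in the young female was 1 UMI, in 7.14% of 14 members. The mitochondrial gene mt-Co3, a subunit of cytochrome oxidase, was at 53.4 and 99.3 CPM in young and at 0, 8.65, 7.25 and 0 CPM in old libraries, again without overlap (-4.52 ± 0.95, adjusted p = 0.0193), and rested on 12 young and 3 old UMIs. It does not stand for mitochondrial RNA as a whole. The mitochondrial genes mt-Nd2 and mt-Nd3 were higher in old, among the 10 of lowest p that way, and did not pass. The median mitochondrial share of member UMIs was 0.513% and 1.53% in young and 1.15%, 2.47%, 1.31% and 3.30% in old libraries by age. Dnmbp, a scaffold for dynamin, was at 296 and 0 CPM in the young libraries and at 20.7, 8.65, 14.5 and 19.8 CPM in old ones (-3.69 ± 0.78, adjusted p = 0.0193). The groups overlapped for Dnmbp, and its call rested on the 61 UMIs of the young male, which came from 2.05% of its 195 members. Without that library its log2 fold change was 5.62, over a young female with 0 UMIs of Dnmbp, so its size depends on the prior count. The median log2 fold change of all genes in that fit was 4.90. Without the 20-month library the log2 fold changes were about as large, -4.76 for Gm21738 and -4.43 for mt-Co3, but neither passed (adjusted p = 0.997 each). Without the 28-month library mt-Co3 was at -2.82 and did not pass (0.999). With the barcode-sharing libraries (both young and the 24-month library) as a covariate, none of the 3 passed. The log2 fold change was then -2.96 for Gm21738 and -2.64 for mt-Co3, with an adjusted p of 1.00 each in edgeR, and -4.48 for Dnmbp (0.798). With sex in the model, Gm21738 passed by edgeR (-4.36, adjusted p = 0.0141), while mt-Co3 (-3.57, 0.173) and Dnmbp (-3.43, 0.154) did not. All 3 genes also had their highest free RNA level in a young library. Gm21738 was there at 4471 and 1093 CPM in the young and at 78.1, 1112, 0.262 and 2.61 CPM in the old libraries, so the 24-month library was within the young range in free RNA. The free RNA held mt-Co3 at 176 and 444 CPM in the young and at 91.2, 85.5, 37.5 and 33.9 CPM in the old libraries. The part of free RNA in these 3 calls was not tested. DESeq2 called 0 genes, with 69 higher and 22 lower in old at an unadjusted p under 0.05, against 243 and 65 by edgeR, which is 4.89% of the genes tested.

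The fold changes as a whole leaned upward. A log2 fold change above 0 was found for 66.2% of genes, the median log2 fold change was 0.32, and 13.8% were higher and 5.56% lower in old PAs without overlap of the groups. This shift depended on the setting, with a median of 0.07 without the young female, 0.08 after thinning to 500 UMIs and 0.08 with the barcode-sharing libraries as a covariate. The gene filter also bore on it. Of the 6293 genes, 2069 had a count in over 5% of members in no young library and were tested through old libraries alone. Their median was 0.77 and 83.0% of them were above 0, against 0.15 and 58.0% of the other 4224 genes. The direction of the 2069 genes was thus in part set by the filter, and list counts and medians that hold them are descriptions. Without the young male, the median was 4.90 and edgeR called 0 genes, with 225 higher and 17 lower at an unadjusted p under 0.05. A gene's change is therefore to be read against this shift, and list counts below against the share of all genes.

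Some of the genes with the lowest p that did not pass are given as values. C3, the central complement component and a gene the study follows in its senescence score, was at 19.4 and 0 CPM in the young male and female and at 20.7, 108, 217 and 416 CPM at 20, 24, 27 and 28 months (log2 fold change 3.47 ± 1.11 SE, adjusted p = 0.715). C3 was tested through old libraries alone, and the 20-month value was 1 UMI. Among the clusters C3 was highest in cluster 7, led by fibroblast genes, at 2311 CPM, and next in cluster 3 at 343 CPM. Gsn, gelsolin, which severs actin, was at 77.6 and 99.3 CPM in young and at 392, 121, 1732 and 875 CPM in old libraries (3.40 ± 0.93, adjusted p = 0.715), without overlap. Gsn passed without the 24-month library (3.73, adjusted p = 0.0283), but its log2 fold change was 1.47 without the 5 clusters of other cell types and 0.73 with the barcode-sharing libraries as a covariate. Gsn is also on the fibroblast list, whose summed level in the members was 107 and 199 CPM in the young and 392, 242, 2508 and 1763 CPM in the old libraries. Gsn stood at 7218 CPM in cluster 7. The part of fibroblast RNA in the C3 values was not tested. Slc8a1, the sodium and calcium exchanger, was at 53.4 and 99.3 CPM in young and at 103, 290, 681 and 620 CPM in old libraries (2.94 ± 0.92, adjusted p = 0.715). Mt1, a metallothionein, was at 1198 and 4469 CPM in young and at 723, 887, 159 and 119 CPM in old libraries (-1.89 ± 0.68, adjusted p = 0.715).

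The medians of the MHC lists lay close to that of all genes. Of the MHC class II list 10 of 10 genes were tested, 8 were higher and 2 lower in old libraries, 0 passed and the median log2 fold change was 0.10. Ciita, the master activator of class II genes, was at 29.1 and 0 CPM in young and at 124, 38.9, 225 and 138 CPM in old libraries (2.32 ± 0.99, adjusted p = 0.949), and it too was tested through old libraries alone. Of the MHC class I list 10 of 10 were tested, 9 were higher, 0 passed and the median was 0.44. B2m, the light chain of class I, was at 1062 and 1986 CPM in young and at 1404, 1830, 957 and 1393 CPM in old libraries. Costimulation and checkpoint genes had 7 of 8 tested genes higher and a median of 1.01, with 2 of the 8 tested through old libraries alone. Within them Cd83, a maturation marker of dendritic cells, was at 228 and 298 CPM in young and at 744, 229, 1689 and 42.5 CPM in old libraries, so the 28-month library was the lowest of the 6.

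Dendritic cell lists differed in their medians. The cDC1 list had 9 genes tested, with 7 higher in old, 3 of them without overlap (against 13.8% of all genes). Its median was 1.27, and 3 of the 9 were tested through old libraries alone. Wdfy4 was at 223 and 397 CPM in young and at 475, 255, 1370 and 649 CPM in old libraries (1.62 ± 0.77, adjusted p = 0.994). Clec9a was at 58.2 and 0 CPM in young and at 124, 51.9, 225 and 84.9 CPM in old libraries, and the groups overlapped for both genes. The cDC2 list had 6 of 9 higher, 0 without overlap, and a median of 0.27. Flt3, the receptor that dendritic cells need to develop, was at 107 and 99.3 CPM in young and at 207, 69.2, 341 and 82.7 CPM in old libraries. Of the markers of mature dendritic cells Ccr7, which guides them to lymph nodes, was at 87.3 CPM in the young male, 103 at 20 months and 26.0 at 24 months, and at 0.732 CPM or below in the other libraries.

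No gene of the classical monocyte or neutrophil list passed. Of the classical monocyte list 12 genes were tested, 10 had a log2 fold change above 0, and the median was 0.72. Without overlap, 0 were higher (against 13.8% of all genes) and 1 lower (against 5.56%) in old PAs. The summed level of the list did not follow age, at 2120 and 4369 CPM in young and 867, 3358, 993 and 4997 CPM in old libraries, so that 2 old libraries lay below both young ones. Ccr2 was at 272 and 397 CPM in young and at 145, 368, 348 and 740 CPM in old libraries (0.65 ± 0.74, adjusted p = 0.999), with overlap. Fn1, fibronectin, was at 1208 and 1688 CPM in young and at 392, 1086, 283 and 473 CPM in old libraries, below both young values in each. Chil3, a chitinase-like protein of monocytes and alveolar macrophages, ranged from 0 to 776 CPM, with 497 CPM in the young female. Only 5 of the 15 neutrophil genes were tested. Of these 5 genes, 3 entered through old libraries alone, S100a8 and S100a9 among them, so the direction of the 3 was set by the filter and is no support. The list had a summed level of 97.0 and 199 CPM in young and 640, 969, 1616 and 42759 CPM in old libraries.

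Inflammatory genes went in several directions. Chemokines had 8 of 10 tested genes lower in old libraries, 0 passed, and the median was -0.93, the lowest of the function lists. Cxcl2, which draws neutrophils, was at 2300 and 3972 CPM in young and at 165, 3258, 87.0 and 234 CPM in old libraries. The 24-month library lay within the young range, and the other old ones lay below it (-1.24 ± 1.60, adjusted p = 0.999). Without the 24-month library, Cxcl2 passed at a log2 fold change of -3.80 (adjusted p = 0.00121), and with the barcode-sharing libraries as a covariate it turned to 0.55 (adjusted p = 1.00). Il1b was at 611 and 199 CPM in young and at 599, 904, 1080 and 929 CPM in old libraries (1.09 ± 0.71, adjusted p = 0.999), and the interleukin 1, tumour necrosis factor and NF-kB list had 11 of 16 higher and a median of 0.23. Of these 16 genes, 2 were tested through old libraries alone, and 9 of the other 14 were higher, with a median of 0.12. Of the interferon-stimulated list 16 genes were tested and 14 were higher, 4 of them without overlap (against 13.8% of all genes). The median of this list was 0.83, or 0.18 over the 11 that were not tested through old libraries alone. The most abundant was Ifitm3, at 1693 and 2185 CPM in young and at 950, 2566, 471 and 1959 CPM in old libraries.

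Other function lists were nearer to all genes, with exceptions at either end. Respiratory chain genes had 14 of 18 lower in old, 5 of them without overlap (against 5.56% of all genes), and a median of -0.37. This list holds no gene of the mitochondrial genome. Proliferation genes had 5 of 6 lower and a median of -0.82. Integrins and trafficking genes had 10 of 11 higher and a median of 0.66, and Fc receptors and ITAM signalling 10 of 13 higher and a median of 0.57. Of these 13 genes, 2 were tested through old libraries alone, and 8 of the other 11 were higher, with a median of 0.45. Oxidative burst genes had a median of 0.95 over 6 genes. Cybb, the catalytic subunit of the NADPH oxidase, was at 320 and 199 CPM in young and at 41.3, 554, 304 and 928 CPM in old libraries. Immediate early genes, which rise during digestion of tissue, had 15 of 17 higher and a median of 0.39, with Junb at 1514 and 993 CPM in young and between 876 and 2065 CPM in old libraries. Over all lists 283 genes were tested, 0 passed by edgeR's adjusted p, and 20 had an unadjusted p under 0.05.

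**Figure D5:**
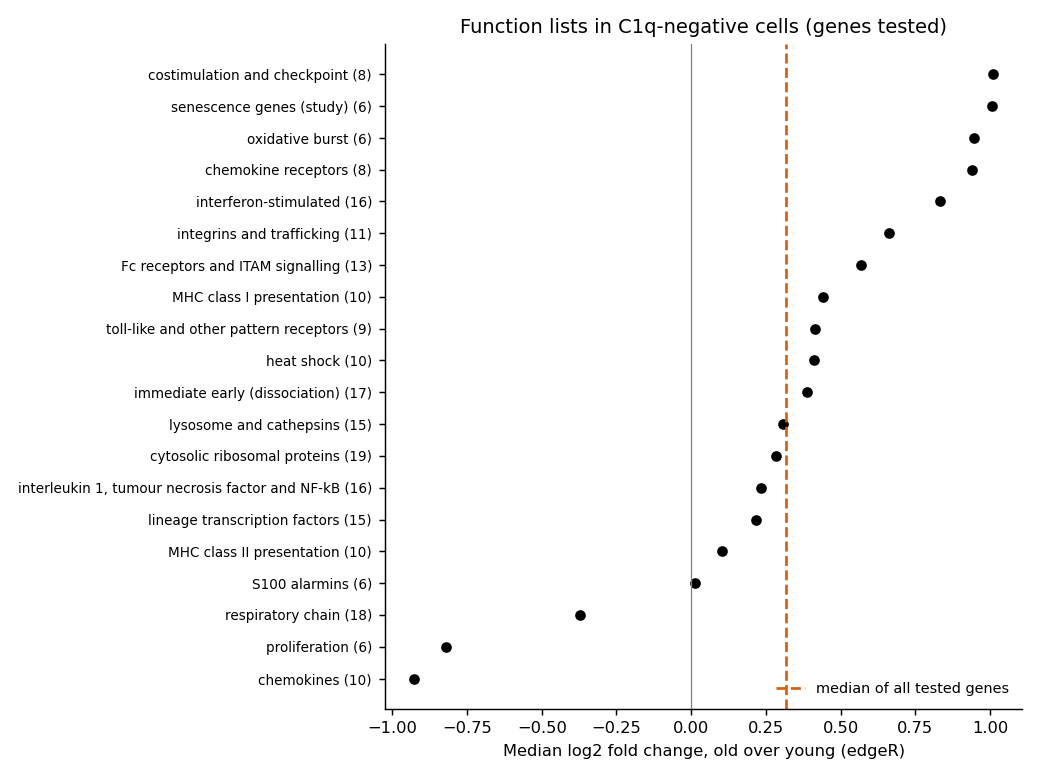
Median log2 fold change of old over young libraries (edgeR) in C1q-negative cells for each function list, with the number of genes tested in parentheses; the dashed line is the median of all tested genes, 0.32. Chemokines (-0.93) and proliferation (-0.82) lay lowest, and costimulation (1.01) and the senescence genes named by the study (1.00) highest; 2 of 8 and 3 of 6 genes of these last lists were tested through old libraries alone.

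RNA of other cell types within the gate was followed with marker lists. B cell genes summed to 1868 and 794 CPM in the young and to 82.6, 1155, 529 and 1673 CPM in the old libraries, led by Ighm. Tissue macrophage genes, led by Apoe, summed to between 165 and 1688 CPM in C1q-negative cells and to between 7257 and 24973 CPM in C1q-positive cells. Mast cell or basophil genes, led by Hdc, summed to 99.3 to 146 CPM in the other 5 libraries and to 964 CPM at 28 months. Hdc was also detected in the neutrophil-like cluster. Without clusters 2, 5, 7, 8 and 10, edgeR called 2 genes between age groups, Gm21738 (log2 fold change -4.67, adjusted p = 0.00569) and Dnmbp (-4.08, adjusted p = 0.00589).

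The list of senescence genes holds genes the study names for myeloid cells or macrophages, picked on these samples and so no independent evidence, and Cdkn1a and Cdkn2a, which it names as canonical markers over all cells. Of its 9 genes 6 were tested, 4 were higher in old libraries, 2 without overlap (against 13.8% of all genes), and 0 passed. Of the 6, C3, Il6st and Rps6ka5 were tested through old libraries alone, which in part set their direction, and the median was 1.00 over the 6 and -0.19 over the other 3. Il6st, the shared gp130 receptor chain of the interleukin 6 family, was at 29.1 and 0 CPM in young and at 103, 47.6, 101 and 105 CPM in old libraries (1.74 ± 0.96, adjusted p = 0.999). Ctsb, cathepsin B, was at 354 and 794 CPM in young and at 186, 498, 217 and 448 CPM in old libraries. Tnfrsf1a, the main receptor of tumour necrosis factor, was near 100 CPM in each, between 86.5 and 138 CPM. Cdkn1a, the cell cycle inhibitor p21, was at 417 and 298 CPM in young and at 351, 277, 159 and 93.0 CPM in old libraries. Ccl8 had 0 UMIs in 4 of 6 libraries and reached 52.7 CPM at 28 months.

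C1q-negative cells differed from C1q-positive cells in more than the genes of the rule, which is described without a test because the rule made this contrast. Cst3, Il1b, Wdfy4, Flt3, Il1r2, Itgal, S100a6 and S100a11 were higher in C1q-negative cells in 6 of 6 libraries. Wdfy4, for example, was at between 223 and 1370 CPM in C1q-negative and between 45.0 and 117 CPM in C1q-positive cells. Lyz2, Ctsb, Cdkn1a, Apoe, Pf4, Cd14 and C5ar1 were higher in 0 of 6. Apoe, an apolipoprotein of macrophages, was at 20.7 to 946 CPM in C1q-negative and at 1002 to 14884 CPM in C1q-positive cells. MHC class II summed to more in C1q-negative cells in 5 of 6 libraries, the exception being 28 months, with 7867 against 16852 CPM. Free RNA at 28 months held 2252 CPM of the same list.

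The change with age differed between the classes for 1 of 7781 genes tested (0.0129%), by an interaction term in edgeR with library as a block. The gene was Dpyd, dihydropyrimidine dehydrogenase, which degrades pyrimidines. In C1q-negative cells it was at 24.3 and 99.3 CPM in young and at 0, 8.65, 0 and 2.20 CPM in old libraries, which is 6 UMIs in young and 5 in old libraries. In C1q-positive cells it was at 0 in both young libraries and at 67.5, 15.3, 157 and 77.6 CPM in old ones. The adjusted p of the difference was 0.034. Dpyd met the gene filter only through the C1q-positive cells of 3 old libraries, so its direction there was set by the filter, and this p is a description and not support. In free RNA Dpyd was at 319 and 165 CPM in the young and at 100.3, 94.0, 7.35 and 12.2 CPM in the old libraries, and its part in the C1q-negative values was not tested. At an unadjusted p under 0.05, 163 genes had a larger and 133 a smaller log2 fold change in C1q-negative cells, and DESeq2 called 0 genes.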

How the data were processed

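Single cell libraries of 6 mice (2 young, 4 old) were used. The authors deposited raw UMI counts per gene and barcode. Per the submitters' processing notes, they used cutadapt, STAR and STARsolo with GRCm38.p6. Gene symbols are those of the files, and a symbol at 0 in every library is not read as absent. The members, lists and tests were chosen with earlier results of these data known.

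Members were clustered in scanpy 1.11.5 (2000 variable genes, 20 principal components, 15 neighbours, leidenalg 0.10.2 at a resolution of 0.8, no batch correction), and leading genes had to be detected in 25% of a cluster. Counts of members were summed per library with at least 10 members and compared in edgeR 4.0.16 (TMM, robust quasi-likelihood F test, Benjamini-Hochberg) in R 4.3.3, for genes with a count in over 5% of members in at least 3 libraries, without the rule's genes. Shares were compared with the exact permutation test over libraries. C1q-positive cells entered an interaction fit. Doublets were kept by the rule; 14 members were marked by scrublet per library and removed in an alternative. Genes named were drawn from those called, the 10 of lowest p each way with a mean of at least 50 CPM, the 2 most abundant and lowest-p genes of a list, leading genes of clusters, and genes the study names. Not every gene under these rules is given. Of the 10 of lowest p each way, C3, Gsn, Slc8a1 and Mt1 are given as values beside the called genes. Values are not given for Airn, mt-Nd2, Ms4a6b, Nlrp1b, Pag1, mt-Nd3 and Pmepa1, which were higher in old. The same holds for Gm31243, Gm19739, Ltc4s, Gm10080, Gm8730, Snx32 and Alpk2, which were lower. Other members of the lists, such as Flt3, Ccr7 and Ly6c2, were chosen after their values were seen. Promoters came from RefSeq (GRCm38.p6), matched by symbol for both genes sought. Intervals cover counting error only. Each library was taken as 1 mouse, so p-values measure the spread between mice and libraries together.

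On simulated counts for the old against young comparison (6293 genes, 200 changed), the fit recovered 0% of genes changed 4-fold and 63% of those changed 16-fold, with 3 and 12 false calls, so a gene changed 4-fold was not recovered in this design. For the interaction (7781 genes) it recovered 3% and 49%, with 4 and 6 false calls. The numbers of genes called in the data, 3 between age groups and 1 for the interaction, did not exceed the false calls of these simulations. DESeq2 1.42.0, other filters, thinning to 500 UMIs and leaving out libraries were the alternatives.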

Additional observations from a re-analysis of the deposited data

Results flagged for a closer look

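The lowest or highest of the 4 old libraries stood apart from the other 3 by Dixon's ratio at the 95% level in 12 of 66 values examined. Chance gives about 1 in 20 for a single value, but several of the 12 share counts (the neutrophil and S100 lists with S100a8 and S100a9, the mast cell list with Hdc), so their number is not set against chance. In 8 of them the 28-month library was the highest: the neutrophil list at 42759 CPM, S100a8 at 17181 CPM, S100a9 at 16647 CPM, the S100 alarmins list at 38447 CPM, the oxidative burst list at 3489 CPM, the mast cell or basophil list at 964 CPM and Hdc at 394 CPM. Ccl8 was also highest there, at 52.7 CPM. The neutrophil list was at most 1616 CPM in the other old libraries. The mast cell list at 28 months included the 207 Mcpt4 UMIs of 4 cells.

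The 24-month library was the highest for the erythroid list, at 50956 CPM, and for Cxcl2, at 3258 CPM, and the lowest for Il6st, at 47.6 CPM. The erythroid genes in free RNA of the same library were at 109376 CPM. The 20-month library was the lowest for the proliferation list, at 743 CPM.

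Dpyd was picked out because its change with age differed between C1q-negative and C1q-positive cells. The fitted difference of the log2 fold changes was -11.98 (edgeR, adjusted p = 0.034). C1q-positive cells of both young libraries held 0 UMIs of Dpyd, so the size depends on the prior count and gives no bound. Dpyd entered the test only through C1q-positive cells of old libraries, and its p is a description. Over 13 alternatives in which it was tested, it passed in 6 and did not pass in 7, with the same direction in each.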

How the results depend on the processing

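The lower mean share of C1q-negative cells in old PAs kept its direction in 13 of 16 alternatives. Leaving out 1 library each time gave differences from -3.61 to 2.06 percentage points, and the sign turned without the young male (2.06), the 20-month library (0.0358) and the 27-month library (0.256).

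Counts of genes called between age groups are not given where the young female fell under the minimum of members, which left 1 young library. These settings were 1000 UMIs and 500 genes, a marker sum of 5 (5 libraries each) and a minimum of 20 members (3 libraries). In the other fits the count, 3 in the report, was 0 without cells with a lymphoid UMI (4 libraries) and after thinning. It was also 0 with library totals, filterByExpr, DESeq2 and the barcode-sharing libraries as a covariate. It was 1 without marked doublets and 9 without the gene filter. Leaving out 1 library gave 0 to 33 calls, with 33 (3 higher, 30 lower) without the 24-month library. At an unadjusted p under 0.05, DESeq2 gave 69 higher and 22 lower. Of genes on the lists, 0 were called, against 0 to 5 when 1 library was left out, 1 without the gene filter (S100a8) and 2 with sex as a covariate (S100a8 and S100a9). Over the 3 of 6 fits without 1 library in which it was tested, Dnmbp ranged from -4.42 to 5.62. The 5.62, without the young male, stands over 0 UMIs in the young female and beside a median of 4.90 over all genes. Dnmbp turned to 0.71 without any C1q or Mrc1 UMI, and Cxcl2 to 0.55 with the barcode-sharing covariate. The cause was not tested.

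At 1000 UMIs and at a marker sum of 5 the interaction fits lost the young female as well (5 libraries each), so no count is given. The interaction count, 1 in the report, was 0 without lymphoid UMIs (4 libraries), with library totals, filterByExpr and DESeq2. It was 6 without any C1q or Mrc1 UMI, 2 without shared barcodes, 12 without the clusters of other cell types, and 0 to 20 when 1 library was left out, with 20 without the 24-month library. Leaving out those clusters was chosen after seeing the data. Clusters numbered 11 to 15 under other settings. No paired analysis was possible because the labels give no number that ties a young to an old mouse. The libraries held 14 to 214 members, and genes with few counts in the small ones carry wide errors. The sex covariate codes the 20-month library as male.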
